A study of Mus musculus with 11 samples.

Results

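The family of miR-103 and miR-107 is a pair of nearly identical microRNAs (miRNAs), miR-103-3p and miR-107-3p, together with the opposite arms of their hairpins, miR-103-1-5p, miR-103-2-5p and miR-107-5p. Members were taken by name from the deposited count table: every mature miRNA with the stem miR-103, miR-103-1, miR-103-2 or miR-107, on either arm. This gave 5 of the 1281 mature miRNA names in the table. They were followed in liver of C57/B6 mice that lack telomerase, all labelled G4 and all with short telomeres. The groups were 6 libraries from G4 p53-/- mice, which lack p53, and 5 libraries from G4 p53+/+ mice, with intact p53. The animals received no treatment. No group with intact telomeres was analysed here. The sources used here give neither age nor sex. They do not say whether the libraries are from different animals, so the p-values cover the spread between libraries, which may be technical. Each n below is a number of libraries, also where livers are named.

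MicroRNAs are short RNAs that are cut from hairpin precursors and repress messenger RNAs that pair with their seed, bases 2 to 8 from the 5′ end. In mice, miR-103 and miR-107 are known as regulators of insulin sensitivity. Their levels are reported to rise in liver of obese animals, their silencing is reported to improve glucose handling, and caveolin-1, a stabiliser of the insulin receptor, is a described target. In human cells, miR-107 has also been reported to be induced by p53 together with its host gene PANK1. The series was designed to look for miRNAs that depend on p53 in this liver, and the comparison made here is the level of each member without and with p53.

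The sequences below, from RefSeq (GRCm38.p6), are shown because they decide which reads can be told apart. The capitals mark the seed.
mmu-miR-103-3p: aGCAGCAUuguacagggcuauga
mmu-miR-107-3p: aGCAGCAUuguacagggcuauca
mmu-miR-103-1-5p: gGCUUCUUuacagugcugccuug
mmu-miR-103-2-5p: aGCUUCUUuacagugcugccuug
mmu-miR-107-5p: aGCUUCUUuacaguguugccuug

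All 5 matched an entry of the RefSeq table. miR-103-3p and miR-107-3p have 23 bases each and differ by the single substitution G22C, counted from the 5′ end with the base of miR-103-3p first. A read that starts at base 1 and ends at or before base 21 is therefore the same for both. The sources used here do not say how the authors assigned such reads, so the split between these names is uncertain, and so is their sum if such reads were counted under both. Among 1679 mature names in the RefSeq table, miR-103-3p and miR-107-3p were the 2 with this seed, and the 3 opposite arms shared a seed of their own. miR-103-2-5p differs from miR-103-1-5p by G1A, and miR-107-5p differs from miR-103-2-5p by C16U.

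The hairpins sit at equivalent places of 3 genes for pantothenate kinases, the enzymes that carry out the rate-limiting step of coenzyme A synthesis. Mir103-1 lies on the plus strand of chromosome 11 from 35782396 to 35782481, within Pank3. Mir103-2 lies on the plus strand of chromosome 2 from 131288052 to 131288137, within Pank2. Mir107 lies on the minus strand of chromosome 19 from 34820687 to 34820773, within Pank1. In the GENCODE M21 annotation (GRCm38) each hairpin is on the strand of its host and in intron 5 of the 6 introns of the host's principal transcript. The hairpins are shown here with both mature arms in capitals, to show where on each hairpin the counted arms lie.
Mir103-1: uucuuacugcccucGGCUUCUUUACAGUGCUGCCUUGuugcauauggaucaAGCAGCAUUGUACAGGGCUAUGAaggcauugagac
Mir103-2: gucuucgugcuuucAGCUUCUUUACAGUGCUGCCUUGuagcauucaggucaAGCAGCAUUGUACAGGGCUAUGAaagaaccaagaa
Mir107: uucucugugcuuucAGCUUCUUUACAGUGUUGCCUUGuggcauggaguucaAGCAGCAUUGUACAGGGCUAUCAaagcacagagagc

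Aligned end to end, Mir103-2 and Mir107 were identical at 83.9% of positions, Mir103-1 and Mir107 at 80.5%, and Mir103-1 and Mir103-2 at 80.2%. miR-103-3p is the same sequence in both of its hairpins and was deposited as 2 entries, 1 for each hairpin. These entries differed by at most 8 reads in a library, or 0.167%, so the table does not divide miR-103-3p between the Pank2 and the Pank3 locus. The highest entry was used, and miR-103-3p was counted once.

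The libraries held between 1905609 and 6682492 reads assigned to miRNAs, with p53+/+ libraries 1 and 2 and p53-/- library 11 the shallowest. Library numbers are those of the labels. The liver label was checked on miR-122-5p, the dominant miRNA of hepatocytes, which made up 52.8 to 64.0% of reads in p53-/- libraries and 52.4 to 57.7% in p53+/+ libraries. In bulk liver, fewer cells of a type and less miRNA per cell cannot be told apart. Reads were not marked by molecule, so the counting intervals and limits given here cover counting error only.

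Both 3p arms were plentiful in every library. Together they took 0.432 ± 0.106% of all reads in p53-/- livers (SD, n = 6) and 0.414 ± 0.0779% in p53+/+ livers (SD, n = 5). In level, miR-103-3p was number 28 and miR-107-3p number 59 of the 388 miRNAs with enough reads to be tested. Levels are given as normalised CPM, read counts scaled to a common library size with the TMM method of edgeR. The scaling acts between libraries, so comparisons of different miRNAs here are comparisons of reads. Whether their sequences were recovered equally was not tested. Over all 11 libraries miR-103-3p averaged 3459 ± 709.2 normalised CPM (SD). Its neighbours in the order, miR-29a-3p above at 3784 ± 1254 and miR-5109 below at 3020 ± 2165, did not differ from it beyond their spread. miR-107-3p averaged 768 ± 124 normalised CPM (SD), between miR-93-5p at 772 ± 132 and miR-181a-5p at 752 ± 291, which also lay within its spread.

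miR-103-3p, the more abundant of the pair, showed no difference between genotypes beyond the spread between libraries. In p53-/- livers the lowest, median and highest levels were 2843, 3796 and 4065 normalised CPM. In p53+/+ libraries 1 to 5 they were 2600, 2167, 3932, 3433 and 4463 normalised CPM. The p53-/- values all lay within the p53+/+ range, which held both the lowest and the highest value of the series. The means were 3575 ± 511.5 in p53-/- livers (SD, n = 6) and 3319 ± 941 in p53+/+ livers (SD, n = 5). The log2 fold change, p53-/- over p53+/+, was 0.11 (SE 0.19). Its Benjamini-Hochberg adjusted p over all 388 miRNAs was 0.792 by the quasi-likelihood test of edgeR. Of the 6 p53-/- libraries, 4 were above the p53+/+ median. The 95% interval ran from -0.31 to 0.52, that is from 0.808 to 1.44 times the p53+/+ level. The small positive value rested on p53+/+ library 2, without which the log2 fold change was -0.046. Without both shallow p53+/+ libraries, 1 and 2, it was -0.098.

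miR-107-3p, the member reported as induced by p53 in human cells, also showed no difference that exceeded this spread. In p53-/- livers the lowest, median and highest levels were 554, 806 and 891 normalised CPM. In p53+/+ libraries 1 to 5 they were 631, 821, 855, 739 and 875 normalised CPM. Here the p53-/- livers held both ends: libraries 6 and 7, at 554 and 588.5, were below every p53+/+ library, and libraries 8 and 10, at 887 and 891, were above every one. The means were 755 ± 149 in p53-/- livers (SD, n = 6) and 784 ± 100.2 in p53+/+ livers (SD, n = 5). The log2 fold change was -0.054 (SE 0.17), with an adjusted p of 0.907 in edgeR, and 3 of 6 p53-/- libraries lay above the p53+/+ median. The 95% interval, -0.42 to 0.31, allows anything from 0.749 to 1.24 times the p53+/+ level. The sign was not fixed by these libraries: without p53-/- library 6 the log2 fold change was 0.020, and with p53-/- libraries 10, 11 and 12 alone it was 0.073. Those 3 carry HA numbers above 500 in their descriptions, as all p53+/+ libraries do; the meaning of that number is not given.

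**Figure D1:**
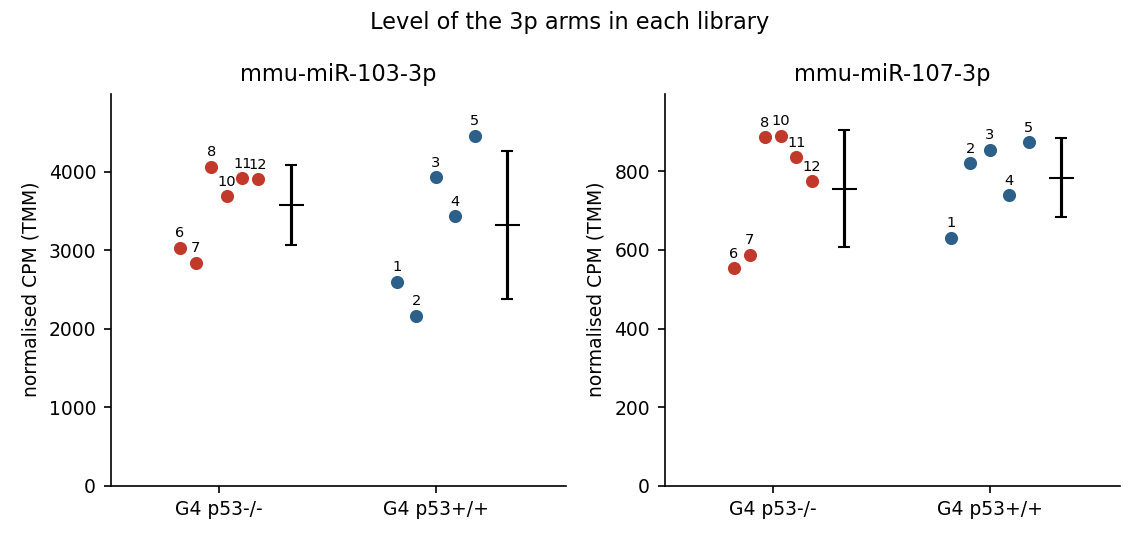
Normalised CPM of miR-103-3p (left) and miR-107-3p (right) in each library, numbered as in the labels, with p53-/- livers in red and p53+/+ livers in blue; bars show mean ± SD (n = 6 and n = 5). The genotypes overlap for both miRNAs, with p53-/- libraries 6 and 7 low in both panels and p53+/+ library 2 low for miR-103-3p, at 2167, but not for miR-107-3p, at 821.

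Neither 3p arm passed the test, so 0 of the 2 tested members were called, and the genotypes' ranges overlapped for both, where they did not overlap for 2.32% of all tested miRNAs. Over all 388 tested miRNAs, 0.258% were called by edgeR at an adjusted p of 0.05. That was the single miRNA miR-34a-5p, whose gene p53 is known to activate directly, at 7.13 ± 2.95 normalised CPM in p53-/- livers (SD, n = 6) and 71.9 ± 32.4 in p53+/+ livers (SD, n = 5), a log2 fold change of -3.33. DESeq2 called 6.8% of the miRNAs it gave an adjusted p, and neither 3p arm was among them, with adjusted p-values in DESeq2 of 0.833 for miR-103-3p and 0.8294 for miR-107-3p.

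**Figure D2:**
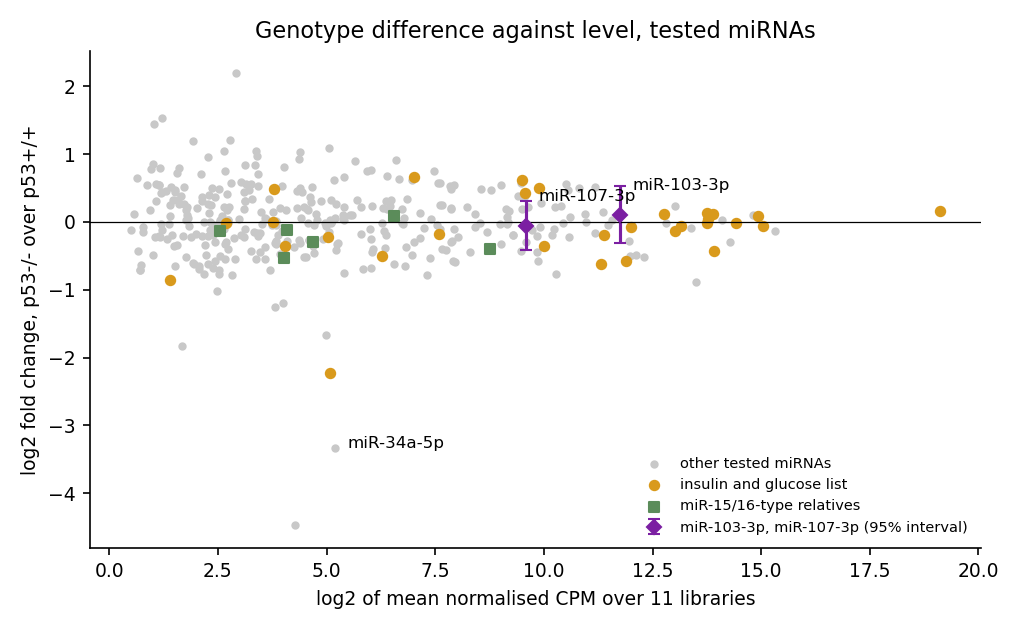
Log2 fold change (p53-/- over p53+/+) against the log2 of the mean normalised CPM for 388 tested miRNAs. miR-103-3p, at 0.11, and miR-107-3p, at -0.054, are drawn with their 95% intervals, which both include 0, while miR-34a-5p lies at -3.33; the insulin and glucose list is orange and the miR-15/16-type relatives are green squares.

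The balance between the pair was compared within each library, a measure that needs no scaling between libraries. miR-107-3p made up 17.4 ± 1.35% of the 3p reads of the family in p53-/- livers (SD, n = 6) and 19.8 ± 4.43% in p53+/+ livers (SD, n = 5). miR-103-3p, which has 2 hairpins to the 1 of miR-107-3p, thus outnumbered it by 4.79 ± 0.449-fold in p53-/- livers and 4.22 ± 0.949-fold in p53+/+ livers. The share ran from 15.4% to 19.5% in p53-/- libraries, with a median of 17.4%. In p53+/+ libraries 1 to 5 it was 19.5, 27.5, 17.9, 17.7 and 16.4%. Library 2 thus stood apart from all the others, with a 95% Wilson interval of 26.4 to 28.6% on 6619 reads. The difference between genotypes, -2.44 percentage points, did not exceed the spread between replicates (exact permutation p = 0.255, two-sided, and 0.558 adjusted over 3 shares). Without p53+/+ libraries 1 and 2 this difference was 0.031 points. Those libraries held the highest p53+/+ shares, so no test is given.

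**Figure D3:**
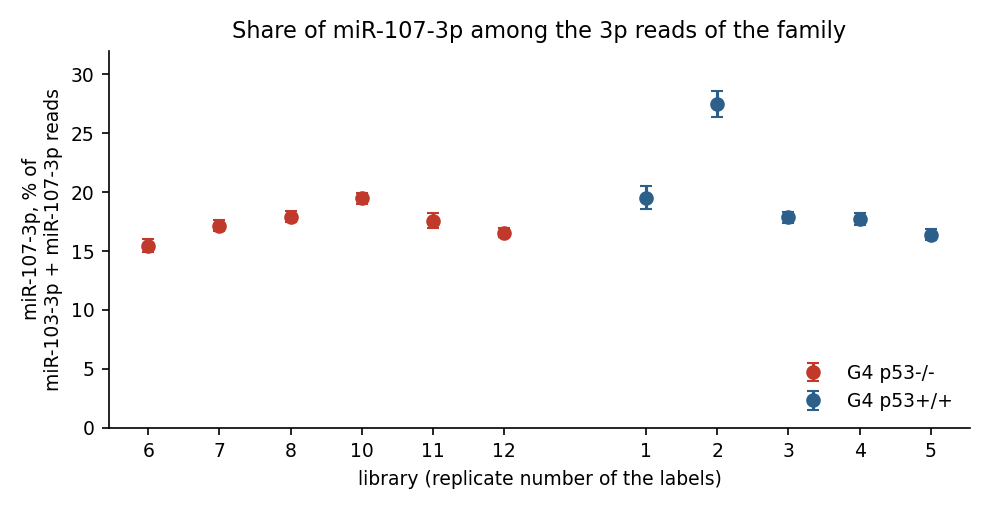
Share of miR-107-3p among miR-103-3p and miR-107-3p reads in each library, in percent, with 95% Wilson intervals for counting error; p53-/- libraries are red and p53+/+ libraries blue. p53+/+ library 2 stands at 27.5%, and the other libraries lie between 15.4% and 19.5%.

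The levels of miR-103-3p and miR-107-3p were also set against each other across the 11 libraries. On the log2 scale Pearson's r was 0.545 (permutation p = 0.0983) and Spearman's rho 0.673 (permutation p = 0.028). Without p53+/+ libraries 1 and 2, the farthest from the median of miR-103-3p, r was 0.901 and rho 0.717 over 9 libraries. They were left out for their values, so no test is given. Within the 6 p53-/- libraries r was 0.917 (exact permutation p = 0.0917) and rho 0.6 (exact permutation p = 0.242). Without p53+/+ library 2 alone r was 0.877. Among p53-/- libraries, 6 and 7 were the lowest in both miRNAs. Reads that end before base 22 are common to both names, and their part in this relation was not tested.

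**Figure D4:**
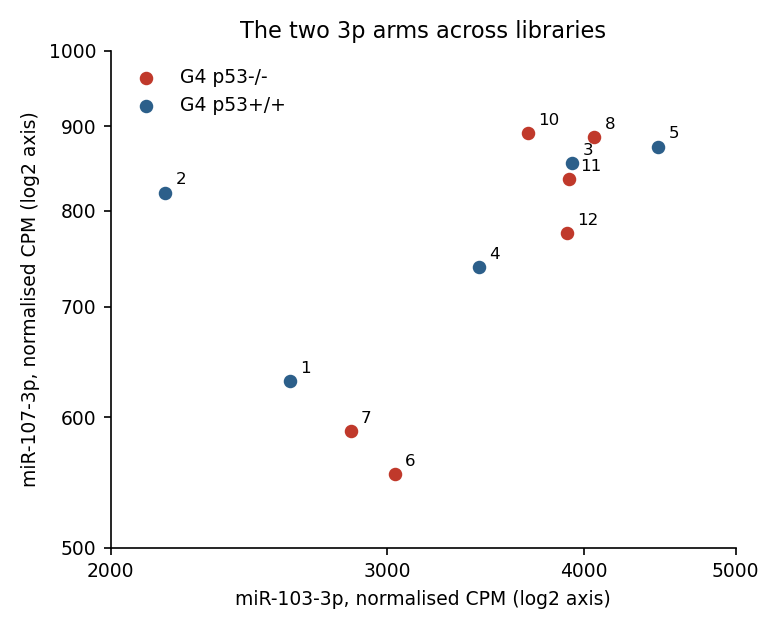
Normalised CPM of miR-107-3p against miR-103-3p in each library, both axes on a log2 scale, p53-/- in red and p53+/+ in blue with library numbers. Libraries 6, 7 and 1 are low in both miRNAs, and library 2 has the lowest miR-103-3p, 2167, with a miR-107-3p level of 821 in the range of the upper libraries.

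Between libraries of a genotype, the SD of the log2 level was 0.33 for miR-103-3p and 0.26 for miR-107-3p (9 residual degrees of freedom). Among the 40 miRNAs nearest in level, 15 had a lower SD than miR-103-3p and 14 a lower SD than miR-107-3p, so both were about as steady as miRNAs of like abundance, whose median SDs were 0.35 and 0.30. The other miRNAs whose library-to-library pattern was most like that of miR-103-3p, after each library was set against its genotype mean, were miR-140-3p (r = 0.913), miR-30d-5p (r = 0.903), miR-199a-5p (r = 0.894) and miR-99b-5p (r = 0.871), chosen as the highest of 386 over 11 libraries. The least alike were let-7d-5p (r = -0.882) and miR-423-3p (r = -0.835). As with miR-103-3p, the lowest levels of miR-140-3p, miR-30d-5p, miR-199a-5p and miR-99b-5p were in p53+/+ library 2. They were 1568, 13592, 310.1 and 1246.6 normalised CPM there. That library also had the highest let-7d-5p, 4862 normalised CPM, and the highest miR-423-3p, 2057.7 normalised CPM. Without p53+/+ libraries 1 and 2, r was 0.762 for miR-140-3p, 0.939 for miR-30d-5p, 0.643 for miR-199a-5p, 0.585 for miR-99b-5p, -0.786 for let-7d-5p and -0.393 for miR-423-3p. For miR-107-3p the highest were miR-1843a-3p (r = 0.746), miR-3073b-3p (r = 0.718), miR-17-3p (r = 0.696) and miR-1981-3p (r = 0.686), and the lowest miR-144-5p (r = -0.722) and let-7f-1-3p (r = -0.712). Of these, miR-3073b-3p averaged only 2.78 normalised CPM in p53-/- livers and 2.45 in p53+/+ livers. For miR-144-5p the means were 4.50 and 5.25 normalised CPM, so both patterns rest on few reads. Without p53+/+ libraries 1 and 2, r with miR-107-3p was 0.677, 0.637, 0.868 and 0.785 for these 4 highest, and -0.957 and -0.745 for the 2 lowest. In the same measure miR-103-3p and miR-107-3p had an r of 0.602 with each other over 11 libraries, which put miR-103-3p at place 21 in the order for miR-107-3p and miR-107-3p at place 47 in the order for miR-103-3p. Without p53+/+ libraries 1 and 2 this r was 0.893, above those of the 4 miRNAs named for miR-107-3p. Of those named for miR-103-3p, it was above miR-140-3p, miR-199a-5p and miR-99b-5p but below miR-30d-5p. These miRNAs were picked over 11 libraries, and the order of all 386 was not computed anew without libraries 1 and 2. The named miRNAs were picked as extremes, and all libraries share their scaling, so these values describe patterns and carry no test.

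The opposite arms had almost no reads. In all libraries together miR-103-1-5p had 3 reads, miR-103-2-5p 7 reads and miR-107-5p 6 reads, against 185532 for miR-103-3p and 40076 for miR-107-3p. All 3 reads of miR-103-1-5p were in p53-/- library 10. miR-103-2-5p had 1 read in each of p53-/- libraries 8 and 12, and 1, 1, 2 and 1 reads in p53+/+ libraries 2 to 5. miR-107-5p had 2 reads in p53-/- library 6 and 1 in library 8, and 1 read in each of p53+/+ libraries 3, 4 and 5. Every other library had 0, which in a single library allows up to 1.57 CPM in the shallowest and 0.449 CPM in the deepest. None of these arms had enough reads for the test of levels across genotypes, and no difference in level was detectable at this depth. miR-103-1-5p and miR-103-2-5p differ in their first base alone, so a read that lacks that base could come from either.

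The shares of arms that follow rest on 0 to 3 reads of the 5p arms in a library. As a share of the reads of both arms, the 5p arms of miR-103 made up 0.00389 ± 0.00591% in p53-/- livers (SD, n = 6) and 0.00804 ± 0.00795% in p53+/+ livers (SD, n = 5; two-sided exact permutation p = 0.372). For miR-107 the share was 0.0173 ± 0.0331% in p53-/- livers and 0.0139 ± 0.013% in p53+/+ livers (exact permutation p = 1.0). The higher p53-/- mean rested on 2 reads in library 6: the medians were 0.0% in p53-/- livers and 0.0196% in p53+/+ livers, and without that library the difference was -0.00974 points. The share of the less abundant arm in these hairpins was at the low end for this tissue. Of 169 hairpins with an arm on each side and at least 1000 reads, the less abundant arm took a median of 0.784% of reads. It took 0.00162% for Mir103-1, 0.00377% for Mir103-2 and 0.015% for Mir107. A smaller share was found for 10, 17 and 23 of the 169 hairpins, among them 8 whose minor arm had 0 reads. For Mir103-1 and Mir103-2 the 3p reads are the same reads, since their 3p arms cannot be told apart. They were counted in full for each hairpin, so the share of each may be understated. Other hairpins with a shared arm were counted in the same way, among them hairpins of miR-26a and let-7a with smaller shares. The order of the hairpins is uncertain to that degree.

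**Figure D5:**
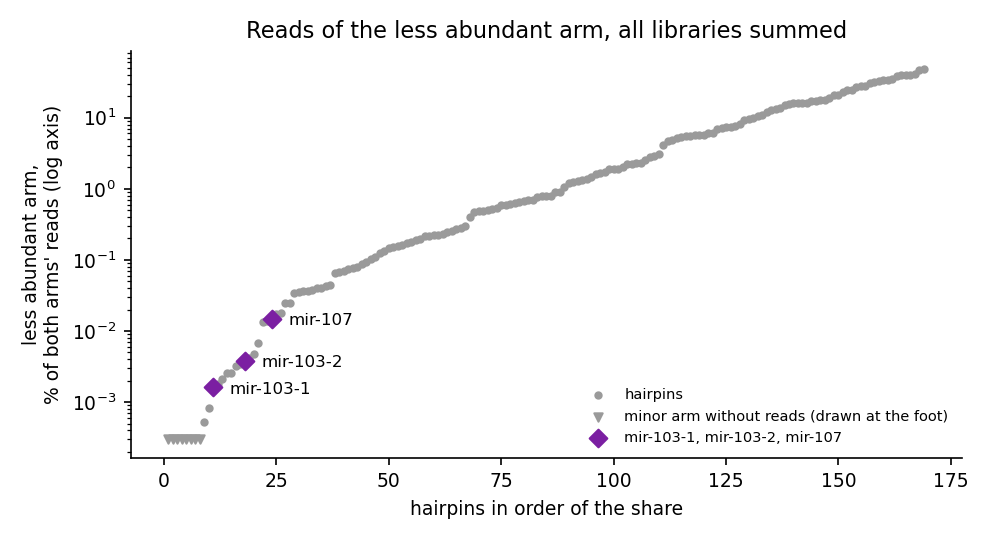
Share of the less abundant arm in the reads of both arms (percent, log axis) for 169 hairpins with at least 1000 reads over all libraries, in order of the share. The hairpins of the family, drawn as purple diamonds at 0.00162, 0.00377 and 0.015%, lie near the low end, far under the median of 0.784%.

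The first 7 bases of miR-103-3p and miR-107-3p, AGCAGCA, recur from base 2 to base 8 in the miR-15/16 type of miRNA, which is known to restrain the cell cycle. They are shown with these 7 bases in capitals for the 2 members with the smallest p.
miR-16-5p: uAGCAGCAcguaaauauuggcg
miR-15a-5p: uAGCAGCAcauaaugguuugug

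Of 10 such names in the RefSeq table, all had a table entry, with miR-497a-5p listed as miR-497-5p. No read was found for 4 of them, and 6 were tested. Summed over these 6, the relatives reached 531 ± 55.4 normalised CPM in p53-/- livers (SD, n = 6) and 659 ± 137 in p53+/+ livers (SD, n = 5). The 3p arms of miR-103 and miR-107 together reached 4331 ± 649.7 normalised CPM in p53-/- livers and 4103 ± 1000.5 in p53+/+ livers, and exceeded the relatives in every library, by 6.25 to 10.4-fold in p53-/- livers and 3.34 to 8.07-fold in p53+/+ livers.

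Of the 6 relatives 5 had log2 fold changes below 0 and 1 above, with a median of -0.22, beside 198 below and 190 above with a median of -0.01 over all 388 tested. edgeR called 0 of the 6, against 0.258% of all tested miRNAs, and DESeq2 called 0 of the 5 it gave an adjusted p, against 6.8% of all. miR-16-5p was at 376 ± 50.4 normalised CPM in p53-/- livers and 496 ± 108 in p53+/+ livers, or -0.40 on the log2 scale (SE 0.17, edgeR adjusted p = 0.221). miR-15a-5p was at 13.4 ± 2.53 normalised CPM in p53-/- livers and 19.6 ± 6.23 in p53+/+ livers, or -0.53 on the log2 scale (SE 0.23, edgeR adjusted p = 0.247). The others were miR-195a-5p at -0.30, miR-322-5p at -0.13, miR-497-5p at -0.13 and miR-15b-5p at 0.09, with adjusted p-values in edgeR from 0.549 to 0.88.

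Other miRNAs reported to act on insulin signalling or glucose handling were described beside the family. Of 32 listed, 30 were tested, 11 with a log2 fold change above 0 and 19 below, with a median of -0.04, beside 190 above and 198 below over all 388 tested. edgeR called 0 of the 30, against 0.258% of all tested miRNAs, and DESeq2 called 0 of the 27 it gave an adjusted p, against 6.8% of all. The 6 with the smallest p were miR-375-3p (log2 fold change -2.22), abundant in pancreatic islets, miR-26b-5p (-0.61), miR-29a-3p (-0.58), which represses collagens, let-7e-5p (0.62), miR-26a-5p (-0.43) and miR-320-3p (0.50), with adjusted p-values in edgeR from 0.174 to 0.287. The miR-375-3p value came with a wide spread, 12.9 ± 6.88 normalised CPM in p53-/- livers and 59.3 ± 69.8 in p53+/+ livers. The summed pancreas markers, all 4 detected, ran from 6.01 to 25.4 CPM in p53-/- libraries and from 3.05 to 387 CPM in p53+/+ libraries. miR-375-3p is itself among these 4, so the sum is not independent of its value. The part of pancreas in that value was not tested. miR-103-3p was more abundant than 16 of the 30 tested members of the list, and miR-107-3p than 12.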

How the data were processed

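Small RNA libraries were made from 50 mg of liver after Trizol isolation, DNA digestion and column purification, with an Illumina kit, per the labels' protocols. The count table deposited by the authors lists whole read counts for each mature miRNA, once per hairpin; the submitters' processing notes name GRCm38 and limma. The sources used here name no aligner or counter, nor how multi-mapping reads were treated. The authors' deposited CPM are the same counts over the sum of a library's entries, hairpin repeats included, as the values show. The table's 1418 entries were reduced to 1281 names by the highest count over hairpins. Pairs of libraries of a genotype differed by at least 98.2 in chi-square per degree of freedom, so none was counted as a repeat. Genotypes were compared with the quasi-likelihood test of edgeR 4.0.16 (R 4.3.3, TMM, filterByExpr, Benjamini-Hochberg over 388 miRNAs, threshold 0.05), which was tested on simulated data. DESeq2 1.42.0 and limma 3.58.1 (log2 of the authors' CPM plus 1) were alternatives. Shares were compared by exact permutation, and correlations with 100000 permutations, in SciPy 1.17.1. All libraries carry lane 4 and the same date, so the labels separate no sequencing batch. Named miRNAs were the members, those most and least like the 3p arms, neighbours in level, tested miR-15/16-type relatives, the 6 insulin-list members with the smallest p, and every call. Members and lists were chosen with earlier results of these data known. Alternatives were another scaling, no filter, other tools, mean counts over hairpins, and libraries left out.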

Additional observations from a re-analysis of the deposited data

Results flagged for a closer look

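In 3 of 12 sets of values, 1 library stood apart from the others of its genotype by more than Dixon's 95% critical value. Chance meets this criterion in about 1 of 20 groups of normally distributed values. That rate cannot be applied to these 12 sets. The 5p shares rest on at most 3 reads in a library, and the 3p levels, their sum and their share use the same reads. The share of miR-107-3p among the 3p reads was 27.5% in p53+/+ library 2, while the other p53+/+ libraries lay between 16.4 and 19.5%. The gap took 0.717 of the group's range, against a critical value of 0.71. The 5p share of miR-103 reads was 0.0152% in p53-/- library 10, which rests on 3 reads, and at most 0.00455% in the other p53-/- libraries. The 5p share of miR-107 reads was 0.0827% in p53-/- library 6, which rests on 2 reads, and at most 0.0208% in the other p53-/- libraries.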

How the results depend on the processing

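Under all 19 alternatives neither 3p arm passed an adjusted p of 0.05 (lowest 0.609 for miR-103-3p and 0.752 for miR-107-3p), while the sign of their small differences was not stable. With a library left out, the log2 fold change of miR-103-3p ran from -0.046 to 0.21 and that of miR-107-3p from -0.14 to 0.020. Without p53+/+ libraries 1 and 2 miR-103-3p was at -0.098, and when only p53-/- libraries with HA numbers above 500 entered miR-107-3p was at 0.073. The number of miRNAs called over the whole table was 1 in 18 alternatives and 17 in DESeq2. The difference in the miR-107-3p share ran from -3.29 to -0.52 points with a library left out and was 0.031 without p53+/+ libraries 1 and 2. The difference in the miR-107 5p share ran from -0.00974 to 0.0068 points with a library left out, was -0.00592 without p53+/+ libraries 1 and 2, and -0.0139 with the HA numbers above 500 alone, so its sign rests on a few reads. The difference in the miR-103 5p share ran from -0.00642 to -0.000955 points. The correlation of the 3p arms ran from 0.472 to 0.877 with a library left out, the highest without p53+/+ library 2, and was 0.901 without p53+/+ libraries 1 and 2. The cause was not tested. The 5p arms, with at most 3 reads in a library, did not pass the filter on low counts. They entered only the alternative without that filter, and no fold change is given for them. No paired analysis was made because the labels give no pairing of libraries between the genotypes.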
